A study of Sus scrofa with 220 samples.

Results

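Hypoblast cells of pig late blastocysts (LB HYPO) were compared with hypoblast cells of spherical embryos (Sph HYPO), the stage that follows before the embryo elongates. The cells were chosen by their lineage label, which yielded 36 LB HYPO and 12 Sph HYPO cells, 48 of the 220 cells in the series. The raw counts of the cells of each embryo were added up, so that the embryo and not the cell was the replicate, with 5 LB HYPO embryos against 3 Sph HYPO embryos. All cells were sequenced singly with Smart-seq2, a protocol that captures polyadenylated RNA over its full length. The embryos were recovered from crossbred Large White and Landrace sows after artificial insemination, and no embryo of these groups was cultured with an inhibitor or edited. LB and Sph embryos are different animals, and which embryos shared a sow is not given in the sources used here.

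The hypoblast arises with the epiblast from the inner cell mass and forms an epithelial sheet beneath the epiblast. It lays down basement membrane, takes up and carries nutrients, and is the source of secreted inhibitors and ligands that pattern the epiblast above it. As the embryo grows, hypoblast cells spread along the inner wall of the trophectoderm, and the cells under the embryonic disc acquire regulators of visceral endoderm such as FOXA2, LHX1 and EOMES.

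The LB HYPO sums were made of 1 cell (embryo AL), 14 cells (AM), 3 cells (AN), 16 cells (AO) and 2 cells (AP), with 1678233 to 29496266 counts. The Sph HYPO sums held 2 cells (C), 2 cells (E) and 8 cells (F), with 3079243 to 19120689 counts. The median cell had 1660325.5 counts and 5604.5 detected genes in LB HYPO, and 1988462.5 counts and 6138 genes in Sph HYPO. Levels per embryo are CPM, counts scaled to the library size after TMM normalization, which sets embryos side by side for 1 gene but does not compare genes, since CPM takes no account of transcript length.

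Of the 15 hypoblast markers listed, 12 were tested, and each of these had counts in both groups. GATA6, a regulator that defines the lineage, stood at 0 to 198 CPM in LB HYPO and at 27.2 to 207 CPM in Sph HYPO, with AL, the single cell, at 0. FN1, which encodes fibronectin, stood at 3600 to 12200 CPM in LB HYPO and at 5100 to 15800 CPM in Sph HYPO, against 38.4 to 201 CPM in the epiblast sums (EPI) of both stages. Both groups thus carried the hypoblast transcripts that their labels name. The epiblast markers PRDM14, SALL2, SFRP2, UTF1 and FGF19 did not pass 0.118 CPM in any Sph HYPO sum. The 10 tested epiblast markers together, GDF3 and NODAL among them, reached 76.8 to 285 CPM in LB HYPO and 198 to 452 CPM in Sph HYPO.

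The groups differed in more than stage. LB cells were freed from the trophectoderm by immunosurgery with antiserum and complement, whereas the Sph embryos were dissected by hand, so isolation and stage cannot be told apart. XIST, the RNA that coats the inactive X chromosome of female cells, was at 109 CPM in AM, 41 CPM in AO and 234 CPM in AP, and had no count in AL, AN or any Sph HYPO sum. It was above 1 TPM, a level scaled to transcript length and to the total of the cell, in 22 of 36 LB HYPO cells and in 0 of 12 Sph HYPO cells. AL and AN, of 1 and 3 cells, are thus the LB HYPO sums that match Sph HYPO in having no XIST count. From Y-linked expression the paper typed most LB HYPO cells as female and every Sph HYPO cell as male. Sex thus largely followed stage, and its part in the differences below was not tested. The Y-linked genes of the list were not matched to an entry and were not analysed here.

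Across 14721 genes, edgeR's quasi-likelihood test called 24 at a Benjamini-Hochberg adjusted p under 0.05, which is 0.163% of the genes tested. Of these, 17 were higher in Sph HYPO (0.115%) and 7 were lower (0.0476%), and 1402 genes passed an unadjusted p of 0.05. With the size factors of DESeq2 in place of TMM the split was 18 higher and 4 lower. In all 24 called genes the CPM of the 3 Sph embryos did not overlap those of the 5 LB embryos, AL and AN included, and 442 genes in all were higher without overlap (3.0%) and 431 were lower (2.93%). Leaving out embryo F, which holds 8 of the 12 Sph cells, gave 110 calls, 24 higher and 86 lower, and moved the median over the genes tested from -0.03 to -0.71. Leaving out any other embryo gave 17 to 24 calls. Fold changes are given below as log2 ± SE and are positive where Sph HYPO was higher.

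**Figure D1:**
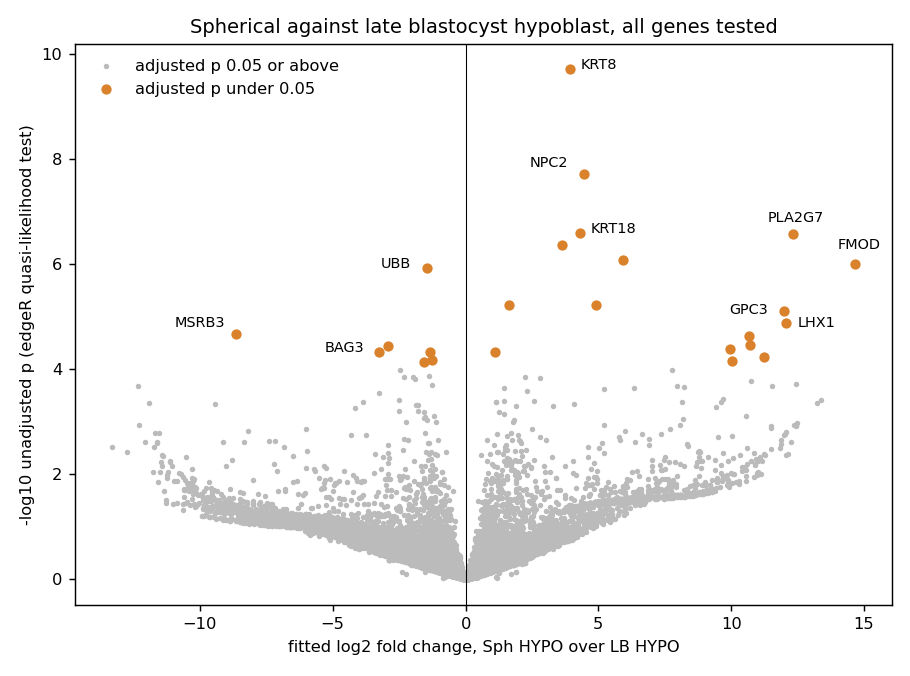
Each point is 1 of the 14721 genes tested, with its fitted log2 fold change of Sph HYPO over LB HYPO on the horizontal axis and the −log10 of its unadjusted p on the vertical axis. The 24 genes with an adjusted p under 0.05 are in orange, with KRT8 highest, and fitted fold changes near 10 or more belong to genes at or close to 0 in LB HYPO.

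The keratins KRT8 and KRT18, which pair to form the filaments of simple epithelia, both rose. KRT8 stood at 1170 CPM in AL, 1980 in AM, 2170 in AN, 1810 in AO and 1900 in AP, and at 27400 CPM in C, 15200 in E and 39600 in F. The lowest Sph embryo was thus far above the highest LB embryo, a log2 fold change of 3.92 ± 0.25 (adjusted p = 2.85e-06, edgeR). KRT18 stood at 112, 261, 240, 220 and 108 CPM in the same order of LB embryos and at 2030, 1630 and 7530 CPM in C, E and F, which gave 4.31 ± 0.48 (adjusted p = 0.000978, edgeR). Both rises held cell by cell as well as embryo by embryo. KRT8 ranged from 695 to 4200 TPM over the 36 LB HYPO cells and from 14000 to 54900 TPM over the 12 Sph HYPO cells. KRT18 ranged from 7.27 to 1180 TPM and from 1270 to 15100 TPM. Both genes passed the test in all 8 fits that left out 1 embryo, with adjusted p up to 3.85e-05 for KRT8 and up to 0.00519 for KRT18.

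These keratins are also markers of trophectoderm, the outer layer of the blastocyst, and the rest of that list was read beside them. Of its 16 genes 11 were tested, and 2 were called, both keratins, against 0.115% of all genes called higher. The summed level of the 11 was 1710 to 3300 CPM in LB HYPO and 17300 to 48300 CPM in Sph HYPO, and most of it came from KRT8. The trophectoderm regulators GATA2 and TFAP2C did not exceed 0.059 and 0.791 CPM in any Sph HYPO sum, and stood at 0 to 7.78 and 3.85 to 97.5 CPM in LB HYPO. GATA3, another regulator of that layer, was higher without overlap, at 22.4 to 69.4 CPM in Sph HYPO and 0 to 16.6 CPM in LB HYPO, but missed the threshold (3.59 ± 1.83, adjusted p = 0.517, edgeR). The median log2 fold change of the 11 was -1.59, against -0.03 for all genes tested.

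**Figure D2:**
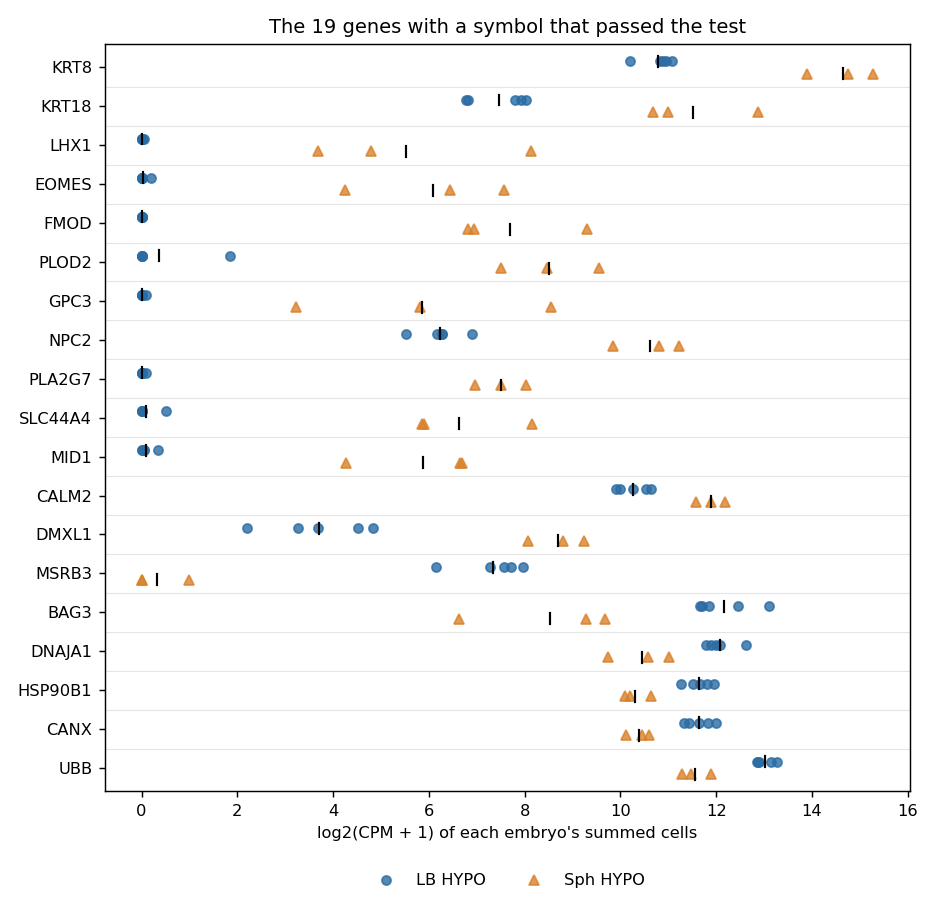
The log2(CPM + 1) of each embryo is plotted for the 19 called genes that have a symbol, with blue circles for the 5 LB HYPO embryos, orange triangles for the 3 Sph HYPO embryos and a black tick at the mean of each group. In every gene the triangles lie wholly to the right or wholly to the left of the circles.

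Among transcription factors of endoderm, LHX1 was the member called. LHX1, a LIM homeodomain factor of the anterior visceral endoderm, had 1 count in all LB HYPO sums together, in AM. In Sph HYPO it stood at 278 CPM in C, 11.8 in E and 26.5 in F, which is 1539 counts. Over the pooled counts this is a ratio of 4270 with an exact 95% interval of 765 to 169000, which covers counting error only, and the adjusted p was 0.0162 (edgeR). The call was lost without AM and without C, the embryo with the highest value (adjusted p = 0.364 without C).

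FOXA2, the forkhead factor of definitive and visceral endoderm, was at 0 CPM in AL, AO and AP, 1.78 in AM and 3.40 in AN, and at 15.8, 14.5 and 13.5 CPM in C, E and F. Its groups did not overlap and its Sph values lay close together, but the difference did not pass the test (3.79 ± 2.28, adjusted p = 0.530, edgeR). Above 1 TPM it was found in 3 of 36 LB HYPO cells (8.33%, exact 95% interval 1.75 to 22.5%) and in 9 of 12 Sph HYPO cells (75.0%, 42.8 to 94.5%). These intervals treat cells as independent, whereas 14 and 16 of the 36 LB cells came from AM and AO and 8 of the 12 Sph cells from F, so they do not compare the stages. The members with the highest mean CPM over the 8 sums overlapped between the stages: HNF4A, a factor of the hepatic and visceral endoderm programme, was at 20.8 to 256 CPM in LB HYPO and 0 to 200 CPM in Sph HYPO (0.26 ± 1.32), and GATA6 differed by 0.04 ± 1.32 (both adjusted p = 1, edgeR). Of 12 endoderm factors tested, 1 was called and 2 were higher without overlap (16.7%, against 3.0% of all genes), with a median of 0.31.

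EOMES, a T-box factor of visceral endoderm, trophectoderm and mesendoderm, was at 0.146 CPM in AM and at 0 in the other LB HYPO embryos. It reached 189 CPM in C, 17.9 in E and 85.4 in F, a ratio of pooled counts of 1540 (exact 95% interval 601 to 5660, adjusted p = 0.0335, edgeR). The entry is 1 of 16 that the authors added to the annotation, and all counts of those entries are even, against 48.1% of other counts. The entries of NODAL, XIST and LAMA1 are also among these 16. The call of EOMES was lost without any of the 5 LB embryos and without C (adjusted p up to 0.170, edgeR). EOMES was listed here among mesoderm and vessel markers, of which 7 were tested, 1 was called higher (against 0.115% of all genes) and 1 was higher without overlap (14.3%, against 3.0%), with a median of 0.00. MESP1 and MESP2, regulators of early mesoderm, had no count in either group. The homeobox gene MIXL1 had no count in LB HYPO and stood at 64.9 CPM in C, 0 in E and 2.77 in F, at least 271-fold higher over the group against a floor of 3 counts (adjusted p = 0.373, edgeR).

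**Figure D3:**
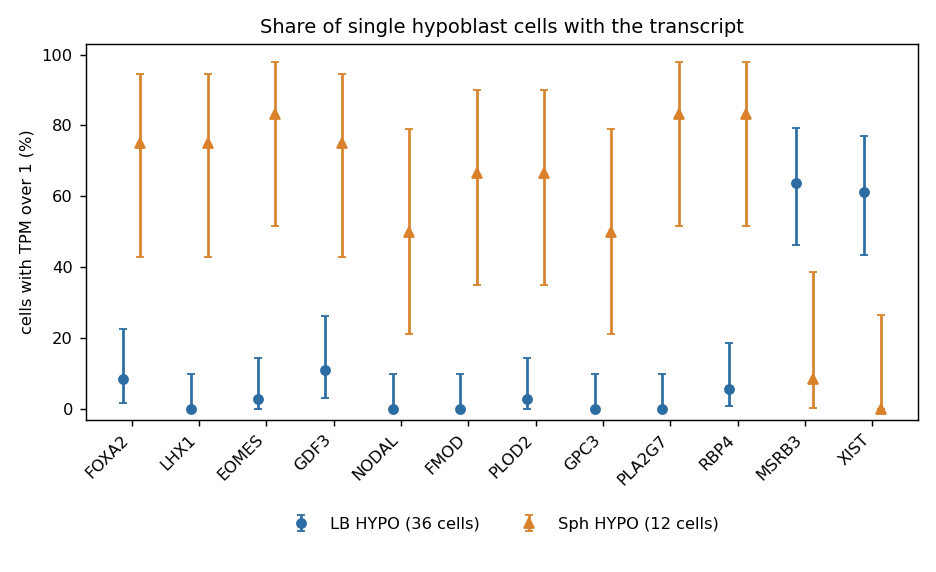
The share of cells with the transcript above 1 TPM is shown for 36 LB HYPO cells (blue circles) and 12 Sph HYPO cells (orange triangles), with exact 95% binomial intervals that cover counting error only. LHX1, FMOD, GPC3, PLA2G7 and NODAL were found in no LB HYPO cell and in 50.0 to 83.3% of Sph HYPO cells, and MSRB3 and XIST mainly in LB HYPO cells.

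Each of the genes of this kind was found in some of the 12 Sph HYPO cells and not in others. LHX1 was above 1 TPM in 9 cells, and all 9 also had EOMES, which was found in 10. GSC, the goosecoid homeobox gene of organizer tissue, was found in 5 cells, 2 of C and 3 of F, and all 5 also had LHX1, EOMES, NODAL and FGF17. The same 5 cells also had FOXA2, GDF3, FMOD, PLOD2, PLA2G7, RBP4 and SLC44A4, whereas MIXL1, GPC3 and MID1 were each found in 4 of the 5. Most of these genes were common among the 12 cells. PLA2G7 and RBP4 were found in 10, FOXA2 and GDF3 in 9, and FMOD, PLOD2, SLC44A4 and FGF17 in 8. NODAL was found in 6. The genes set beside GSC were picked after these counts were seen. DKK1, which encodes a WNT inhibitor, was found in 5 cells, all of them of F, and 2 of these had GSC. LHX1 and EOMES were both missing in 2 cells. Cells of 1 embryo are not replicates, and no test was made of these overlaps.

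Ligands of the NODAL pathway were present in Sph HYPO and at or near 0 in LB HYPO. NODAL, the ligand that patterns the epiblast and visceral endoderm, had no count in the 5 LB HYPO embryos and stood at 64.9 CPM in C, 0 in E and 14 in F. Over the group that is at least 447-fold higher against 3 counts, but E overlapped LB HYPO, and the difference did not pass the test (adjusted p = 0.341, edgeR). GDF3, a related ligand, was at 0 CPM in AL, AN and AP, 0.509 in AM and 5.12 in AO, and at 387, 151 and 285 CPM in C, E and F. Its groups were far apart, and it missed the threshold narrowly (7.75 ± 1.47, adjusted p = 0.0575, edgeR). GDF3 was above 1 TPM in 4 of 36 LB HYPO cells and 9 of 12 Sph HYPO cells, and NODAL in 0 of 36 and 6 of 12.

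No other member of the pathway list passed the test either. SMAD2, a transducer of the receptors, was higher without overlap, at 0 to 66.2 CPM in LB HYPO and 96.8 to 154 CPM in Sph HYPO (2.13 ± 1.2, adjusted p = 0.517, edgeR). FOXH1, the nuclear partner of SMAD2, was lower without overlap, at 68.8 to 126 CPM in LB HYPO and 0 to 13.0 CPM in Sph HYPO (-4.13 ± 1.44, adjusted p = 0.466, edgeR). FST, which encodes the activin antagonist follistatin, was at 31.2 to 180 CPM in LB HYPO and 114 to 523 CPM in Sph HYPO (1.56 ± 0.67, adjusted p = 0.475, edgeR). Of 12 members tested edgeR called none, 5 passed an unadjusted p of 0.05, DESeq2 called 3 and limma 0, 2 were higher without overlap (16.7%, against 3.0%) and 1 was lower (8.33%, against 2.93%), and the median was 1.06.

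Other signalling lists also had no called member by edgeR. In the BMP list 1 of 16 members passed an unadjusted p of 0.05, DESeq2 and limma called 0, and 3 members (ACVR1, SMAD7 and MSX1) were higher without overlap (18.8%, against 3.0%), with a median of 0.15. Its members with the highest mean CPM, the target ID2 (100 to 1580 and 199 to 606 CPM, -0.17 ± 0.79) and the transducer SMAD5 (47.7 to 139 and 37.5 to 338 CPM, 1.30 ± 0.71), overlapped. In the WNT list 5 of 23 passed an unadjusted p of 0.05, DESeq2 and limma called 0, and the median was 1.31. RSPO3, a ligand that amplifies WNT signals, was lower without overlap, at 84.8 to 395 CPM in LB HYPO and 0 to 57.1 CPM in Sph HYPO (-3.35 ± 1.36, adjusted p = 0.466, edgeR). FZD4, a receptor, was also lower without overlap (73.4 to 240 and 8.2 to 43.3 CPM, -2.31 ± 0.87), and TCF7L2, a nuclear factor of the pathway, was higher without overlap (0 to 10.9 and 25.4 to 98.7 CPM, 3.29 ± 1.54). Without overlap 1 member was thus higher (4.35%, against 3.0%) and 2 were lower (8.70%, against 2.93%), and CTNNB1, the transducer beta-catenin, which had the highest mean CPM beside RSPO3, overlapped (0.78 ± 0.35).

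In the list of FGF and receptor tyrosine kinase genes, 1 of 19 members passed an unadjusted p of 0.05, DESeq2 called 1 and limma 0, with a median of -0.06. FGF17, a ligand, had no count in LB HYPO and stood at 28.2 CPM in C, 0 in E and 153 in F, at least 2500-fold higher over the group against 3 counts (adjusted p = 0.208, edgeR). DKK1 of the WNT list also had no count in LB HYPO, and its Sph counts lay in F alone, at 41.1 CPM (adjusted p = 0.466, edgeR). The receptors PDGFRA (39.1 to 831 and 73.3 to 138 CPM, -1.38 ± 0.81) and KIT (57.2 to 566 and 0.309 to 365 CPM, -1.52 ± 1.32), the members with the highest mean CPM, overlapped between the stages. The 2 members higher without overlap (10.5%, against 3.0%) were FGFR1 (0 to 9.02 and 11.1 to 45.4 CPM) and ETV4 (0 to 11.5 and 16.1 to 21.9 CPM). None was lower without overlap.

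**Figure D4:**
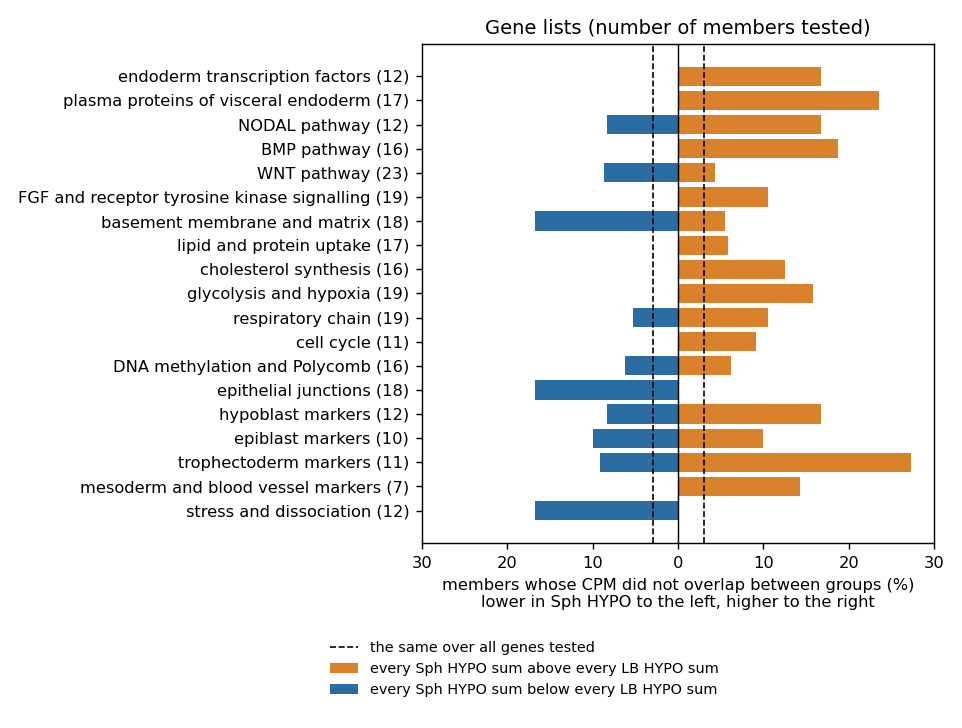
For each gene list the bars give the share of tested members whose CPM did not overlap between the 5 LB HYPO and 3 Sph HYPO embryos, to the right where Sph HYPO was higher and to the left where it was lower. Dashed lines mark the same shares over all 14721 genes, 3.0% and 2.93%, and most lists hold fewer than 20 members, so that 1 gene moves a bar by several points.

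PLOD2 was called in the list of basement membrane and matrix genes, and FMOD and GPC3, called genes that are on no list here, are given beside it. FMOD, which encodes the collagen-binding proteoglycan fibromodulin, had no count in any LB HYPO embryo and stood at 633 CPM in C, 122 in E and 112 in F. It was at least 4330-fold higher over the group against a floor of 3 counts (adjusted p = 0.00204, edgeR), and it passed the test in all 8 fits that left out 1 embryo. PLOD2, a lysyl hydroxylase that prepares collagen for cross-linking, was at 2.59 CPM in the single cell of AL, at 0 in the other LB embryos and at 753, 350 and 181 CPM in C, E and F. Its ratio of pooled counts was 3910 (exact 95% interval 1680 to 12100, adjusted p = 0.0240, edgeR), with the call lost without AP and without C. GPC3, a cell-surface heparan sulphate proteoglycan encoded on the X chromosome, had 2 counts in LB HYPO, both in AO, and 373, 8.35 and 55.4 CPM in C, E and F. The ratio was 3300 (912 to 27300, adjusted p = 0.0101, edgeR), and the call was lost without C (adjusted p = 0.266).

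The members of the same list that were lower did not pass the test. LAMA1, a laminin chain, was at 11.5 to 30.3 CPM in LB HYPO and 0 to 4.72 CPM in Sph HYPO (-3.61 ± 2.20), and NID1, the linker nidogen, at 94.9 to 304 and 4.75 to 36.8 CPM (-2.86 ± 0.87), both without overlap. The list members with the highest mean CPM, FN1 (0.58 ± 0.36) and the laminin chain LAMB1 (912 to 2030 and 486 to 958 CPM, -1.17 ± 0.34), overlapped between the groups. Of 18 list members tested 1 was called higher (against 0.115% of all genes), 1 was higher without overlap (5.56%, against 3.0%) and 3 were lower without overlap (16.7%, against 2.93%), with a median of -0.50.

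NPC2 was called in the list of lipid and protein uptake, and PLA2G7 and SLC44A4, called genes that are on no list here, are given beside it. NPC2, the lysosomal carrier that hands cholesterol to NPC1, stood at 118, 70.9, 45.1, 76.4 and 76.6 CPM in AL, AM, AN, AO and AP and at 2380, 1790 and 924 CPM in C, E and F. The rise was 4.46 ± 0.40 (adjusted p = 0.000139, edgeR), and it passed in all 8 fits without 1 embryo. NPC2 also rose between the LB and Sph epiblast sums (2.73 on the log2 scale, adjusted p = 0.0059, edgeR). Its stage changes in HYPO and EPI did not differ at the threshold (adjusted p = 0.335, edgeR). Every Sph HYPO cell (490 to 2920 TPM) was above every LB HYPO cell (0 to 252 TPM). PLA2G7, a secreted phospholipase carried on lipoproteins, had 2 counts in LB HYPO, both in AO, and 181, 124 and 258 CPM in C, E and F, a ratio of 7570 (exact 95% interval 2090 to 62500, adjusted p = 0.000978, edgeR). SLC44A4, a member of the choline transporter-like family, was at 0.418 CPM in AO, at 0 in the other LB embryos and at 282, 58.8 and 56.7 CPM in C, E and F. Its ratio was 513 (293 to 994, adjusted p = 0.0349, edgeR), and the call was lost without AL, AN, AP or C. Of 17 genes of lipid and protein uptake tested, NPC2 alone was called (against 0.115% of all genes called higher) and alone was higher without overlap (5.88%, against 3.0%), with a median of -0.09. CTSB, a lysosomal protease, was at 307 to 653 and 165 to 480 CPM (-0.42 ± 0.43).

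The plasma proteins that visceral endoderm shares with liver were higher in part. APOA2, an apolipoprotein of high-density lipoprotein, stood at 617, 639, 354, 630 and 184 CPM in AL, AM, AN, AO and AP and at 2680, 1710 and 749 CPM in C, E and F. The lowest Sph embryo, F, lay little above the highest LB embryo, AM, and the difference of 1.82 ± 0.44 did not pass the test (adjusted p = 0.179, edgeR). CLU, which encodes the secreted chaperone clusterin, was at 52.2 to 389 CPM in LB HYPO and at 2680, 631 and 1170 CPM in Sph HYPO (2.81 ± 0.55, adjusted p = 0.0685, edgeR). RBP4, the retinol carrier, was at 2.40 CPM in AM and 0 in the other LB embryos, and at 258, 23.8 and 65.4 CPM in Sph HYPO (7.69 ± 1.94, adjusted p = 0.222, edgeR). APOM was higher in the same way, at 1.10 to 108 and 177 to 412 CPM (2.12 ± 0.90, adjusted p = 0.467, edgeR). These 4 were the members higher without overlap among 17 tested (23.5%, against 3.0%), and none was lower without overlap. edgeR called none of the 17, 6 passed an unadjusted p of 0.05, DESeq2 called 2 and limma 0, and the median was 0.39. The fibrinogen gene FGB and the coagulation gene F10 stayed under 1.9 CPM in every sum of both groups. F2, another coagulation gene, stood at 0 to 8.3 CPM in LB HYPO and 1.58 to 26 CPM in Sph HYPO. SERPINC1 reached 16.2 CPM in LB HYPO and had no count in Sph HYPO.

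The genes that fell in Sph HYPO and have a symbol were 6. BAG3, a co-chaperone of the HSP70 system, stood at 8750 CPM in AL, 3350 in AM, 5640 in AN, 3250 in AO and 3710 in AP, and at 625, 822 and 98.2 CPM in C, E and F. All Sph embryos lay far below the LB embryos, with a fall of -3.26 ± 0.57 on the log2 scale (adjusted p = 0.0349, edgeR), and every Sph HYPO cell (0 to 617 TPM) was below every LB HYPO cell (824 to 6560 TPM). UBB, which encodes polyubiquitin, was at 7430, 9860, 7510, 9070 and 7620 CPM in LB HYPO and at 3800, 2860 and 2510 CPM in Sph HYPO (-1.44 ± 0.18, adjusted p = 0.00211, edgeR). UBB passed in all 8 fits that left out 1 embryo, and BAG3 lost its call without AL and without C.

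DNAJA1, HSP90B1 and CANX fell as well. DNAJA1, an HSP40 co-chaperone, was at 3550 to 6310 CPM in LB HYPO and at 2070, 851 and 1530 CPM in Sph HYPO (-1.57 ± 0.29, adjusted p = 0.0436). HSP90B1, the HSP90 of the endoplasmic reticulum, was at 2460 to 3940 CPM and at 1090, 1170 and 1590 CPM (-1.33 ± 0.23, adjusted p = 0.0349). CANX, the lectin chaperone calnexin, was at 2550 to 4060 CPM and at 1540, 1390 and 1110 CPM (-1.26 ± 0.23, adjusted p = 0.0436). Leaving out AL, AM, AO, E or F ended the call of DNAJA1, leaving out AM, AN, AO, AP, C or E ended that of HSP90B1, and leaving out any of the 8 embryos ended that of CANX, with adjusted p up to 0.0867, 0.153 and 0.0866 (edgeR).

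The stress and dissociation list had 12 members tested, and like the other lists it was chosen with earlier results of these data known. Its summed level was 14800 to 31100 CPM in LB HYPO and 7560 to 8590 CPM in Sph HYPO, and 11 of the 12 fold changes were below 0, with a median of -1.73 against -0.03 for all genes. edgeR called none, 3 passed an unadjusted p of 0.05, and DESeq2 and limma called 0. DNAJB1, an HSP40 co-chaperone induced by heat shock, was lower without overlap, at 1950 to 5480 CPM and 206 to 1110 CPM (-2.45 ± 0.46, adjusted p = 0.0575, edgeR), as was HSPA8, the constitutive HSC70, at 563 to 1260 and 192 to 422 CPM (-1.78 ± 0.41, adjusted p = 0.141, edgeR). Its members with the highest mean CPM, the endoplasmic reticulum chaperone HSPA5 (6510 to 19900 and 3240 to 6620 CPM, -1.44 ± 0.35) and HSP90AA1 (2000 to 4420 and 661 to 3070 CPM, -0.79 ± 0.39), overlapped. BAG3 also fell between the LB and Sph epiblast sums (-4.83 on the log2 scale, adjusted p = 0.00958, edgeR), as 1 of 11 genes called there (0.0747% of the genes tested). The part of the isolation procedure in these levels was not tested.

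The last of the genes that fell was MSRB3, a methionine sulphoxide reductase. It stood at 154, 188, 249, 70.2 and 209 CPM in AL, AM, AN, AO and AP, at 0 in C and E and at 1.0 CPM in F. Its pooled counts were 200 times as high in LB HYPO (exact 95% interval 125 to 342, adjusted p = 0.0240, edgeR). It was above 1 TPM in 23 of 36 LB HYPO cells (63.9%) and 1 of 12 Sph HYPO cells (8.33%), and passed in all 8 fits without 1 embryo.

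The remaining genes that rose have varied roles. MID1, an X-linked gene for a microtubule-associated ubiquitin ligase, had 3 counts in LB HYPO, none of them in AL or AN, and 18.2, 102 and 99.5 CPM in C, E and F, a ratio of 1930 (659 to 9350, adjusted p = 0.0436, edgeR), and kept its call in 1 of the 8 fits without 1 embryo, that without C. CALM2, a calmodulin gene, was at 952 to 1590 CPM in LB HYPO and at 4660, 3820 and 3050 CPM in Sph HYPO (1.62 ± 0.23, adjusted p = 0.00869, edgeR), with the call lost without E. DMXL1, which encodes a factor of proton pump assembly, was at 3.62 to 27.5 CPM and at 607, 443 and 266 CPM (4.91 ± 0.71, adjusted p = 0.00869, edgeR), and passed in all 8. The other 5 called genes carry no symbol. Of these, ENSSSCG00000017092 stood at 11 to 76.8 CPM in LB HYPO and 452 to 3610 CPM in Sph HYPO (5.91 ± 0.72, adjusted p = 0.00204, edgeR), and ENSSSCG00000004091 at 262 to 824 and 65.7 to 101 CPM (-2.91 ± 0.50, adjusted p = 0.0337, edgeR).

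Metabolic lists had no called member by edgeR. Of 16 genes of cholesterol synthesis 2 passed an unadjusted p of 0.05, DESeq2 and limma called 0, and the median was 0.83. FDPS, which makes farnesyl diphosphate, was higher without overlap (27 to 315 and 375 to 1300 CPM, 2.26 ± 0.65, adjusted p = 0.326, edgeR), and MSMO1, a later enzyme, overlapped (0.99 ± 0.96). Of 19 glycolysis and hypoxia genes 2 passed an unadjusted p of 0.05, DESeq2 and limma called 0, 3 (GPI, GAPDH and ENO1) were higher without overlap (15.8%, against 3.0%), and the median was 0.43. Its members with the highest mean CPM, the pyruvate kinase PKM (1.06 ± 0.29) and the lactate dehydrogenase LDHA (531 to 1370 and 374 to 4040 CPM, 1.06 ± 0.57), overlapped.

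Of 19 nuclear genes of the respiratory chain 4 passed an unadjusted p of 0.05, DESeq2 and limma called 0, and the median was -0.08. ATP5F1A, a subunit of ATP synthase, and COX4I1, of complex IV, were higher without overlap (0.82 ± 0.22 and 1.17 ± 0.31), and UQCRC2, of complex III, was lower without overlap (-1.32 ± 0.38). The respiratory chain thus had no common direction in these sums.

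The lists of cell cycle and of DNA methylation and Polycomb had no member called by edgeR. Of 11 cell cycle genes 1 passed an unadjusted p of 0.05, DESeq2 called 1 and limma 0, and the median was -0.28. CCNB1, the mitotic cyclin, was at 485 to 2150 and 119 to 2260 CPM (-0.34 ± 0.68), and CDK1, its kinase, at 352 to 865 and 347 to 1130 CPM (0.22 ± 0.41). CCNE1, the cyclin of S phase entry, was higher without overlap (0 to 10 and 13.5 to 236 CPM, 5.15 ± 1.42, adjusted p = 0.280, edgeR). Of 16 genes of DNA methylation and Polycomb 1 passed an unadjusted p of 0.05, DESeq2 and limma called 0, and the median was 0.82. DNMT1, the maintenance methyltransferase, was lower without overlap, at 227, 237, 232, 268 and 420 CPM in LB HYPO and 121, 105 and 102 CPM in Sph HYPO (-1.34 ± 0.51, adjusted p = 0.466, edgeR). TDG, of the same list, was higher without overlap, at 5.77 to 168 and 173 to 342 CPM (1.23 ± 0.78, adjusted p = 0.546, edgeR). Each direction thus held 1 of the 16 (6.25%, against 3.0% of all genes higher and 2.93% lower). EED, a Polycomb subunit, overlapped (0.98 ± 0.63), and so did the de novo methyltransferase DNMT3B, read here as an epiblast marker (52.0 to 269 and 0 to 128 CPM, -1.23 ± 1.27).

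None of the junction genes rose beside the keratins. Of 18 tested edgeR called none, 5 passed an unadjusted p of 0.05, DESeq2 called 1 and limma 0, none was higher without overlap, and 3 (CLDN7, JUP and EZR) were lower without overlap (16.7%, against 2.93%), with a median of -0.20. EZR, which links membrane to actin, was at 919 to 1740 and 251 to 633 CPM (-1.56 ± 0.37, adjusted p = 0.173, edgeR). The tight junction genes OCLN (1060 to 1530 and 354 to 2470 CPM, -0.10 ± 0.45) and CLDN6 (847 to 1940 and 575 to 1580 CPM, -0.45 ± 0.39) overlapped. edgeR called none of the 12 hypoblast markers (2 at an unadjusted p of 0.05, 0 by DESeq2 and limma, median 0.01) and none of the 10 epiblast markers (3 at an unadjusted p of 0.05, 3 by DESeq2, 0 by limma, median -0.95).

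To see which stage differences differed from those of the epiblast, the 8 hypoblast sums were fitted together with 4 LB EPI and 4 Sph EPI sums. The stage difference of HYPO differed from that of EPI in 6 of 14721 genes (0.0408%), and 1597 genes passed an unadjusted p of 0.05. The HYPO change minus the EPI change was positive in 5 of the 6 (0.034%) and negative in 1 (0.00679%). A negative sign does not mean that the gene fell in HYPO. Of the 6, 4 were also among the 24 genes called above. CPM in the next sentences are scaled over all 16 sums.

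KRT18 rose in HYPO from 105 to 279 CPM to 1620 to 7440 CPM, while in EPI it stood at 1270 to 2420 CPM in LB and 249 to 2470 CPM in Sph, so that Sph HYPO reached the range that EPI held at both stages. The difference of the stage changes was 4.63 ± 0.79 on the log2 scale (adjusted p = 0.0371, edgeR). For KRT8 the same difference was 2.34 and missed the threshold (adjusted p = 0.0615, edgeR). PLA2G7 stood at 138 to 241 CPM in LB EPI, where LB HYPO had 0 to 0.0748 CPM, and at 0 to 73.4 CPM in Sph EPI, where Sph HYPO had 124 to 255 CPM (adjusted p = 0.0127, edgeR). The lineage with more PLA2G7 was thus EPI in late blastocysts and HYPO in spherical embryos.

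CLU showed the same exchange, at 419 to 1220 CPM in LB EPI and 50.7 to 368 CPM in LB HYPO, and at 76.9 to 228 CPM in Sph EPI and 627 to 2550 CPM in Sph HYPO (5.16 ± 0.78, adjusted p = 0.0176, edgeR). DMXL1 differed by 5.66 ± 0.97 (adjusted p = 0.0371, edgeR), with 18.4 to 90.2 CPM in LB EPI and 23.7 to 51.9 CPM in Sph EPI. SLC44A4 had at most 5.41 CPM in any EPI sum (adjusted p = 0.0371, edgeR). The gene with the smaller change in HYPO, ENSSSCG00000016548, has no symbol and stood at 9.87 to 61.4 CPM in LB EPI, 386 to 1070 CPM in Sph EPI, 681 to 1680 CPM in LB HYPO and 1030 to 2170 CPM in Sph HYPO (-4.34 ± 0.76, adjusted p = 0.0422, edgeR).

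Of the embryos with hypoblast sums, 6 also gave epiblast sums. With the embryo as a block 13 genes were called, 4 of the 6 among them, and the adjusted p was 0.535 for SLC44A4 and 0.537 for DMXL1 (edgeR). Leaving out F gave 165 calls, 19 with a positive and 146 with a negative difference of HYPO minus EPI. Leaving out AO gave 15 calls, and leaving out C, AM, AP or AL gave 1, 2, 2 and 3. For LHX1, EOMES and GPC3, which also had counts in Sph EPI (up to 26.2, 9.45 and 27.8 CPM) and none in LB EPI, the stage changes of the lineages did not differ at the threshold (adjusted p = 1 for each, edgeR).

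**Figure D5:**
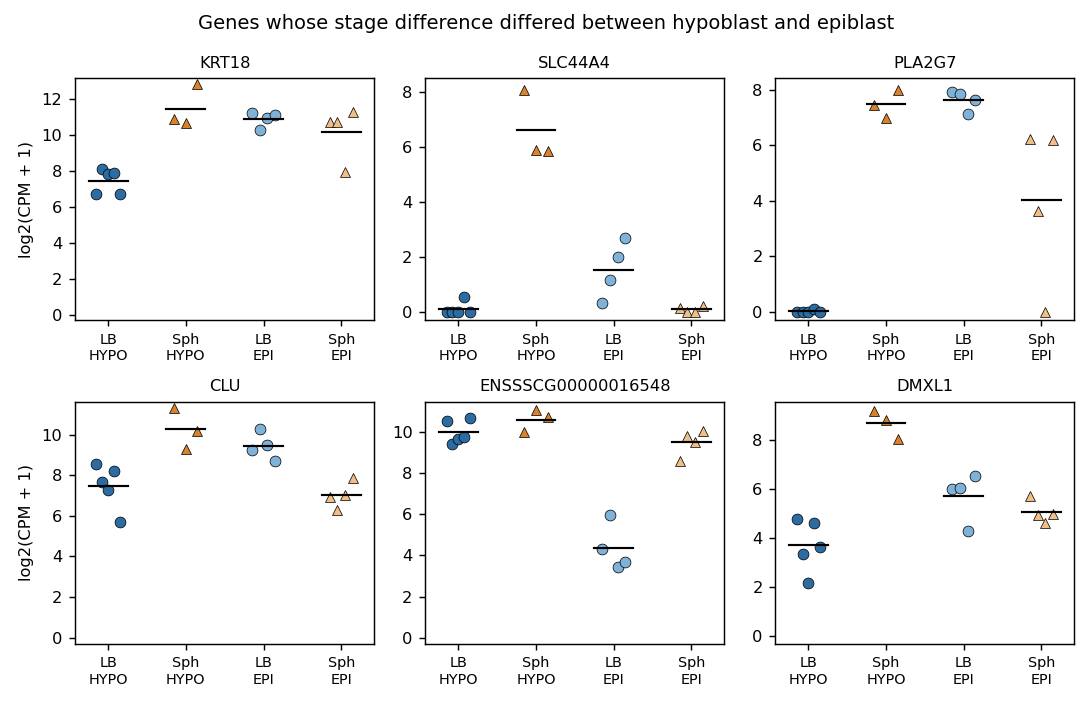
The log2(CPM + 1) of each embryo is plotted by lineage and stage for the 6 genes whose stage difference differed between HYPO and EPI, with a black line at the mean of each group of 5 LB HYPO, 3 Sph HYPO, 4 LB EPI and 4 Sph EPI sums. PLA2G7 and CLU are higher in EPI than in HYPO in late blastocysts and higher in HYPO than in EPI in spherical embryos.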

How the data were processed

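Single cells were sequenced with Smart-seq2. The authors trimmed the reads, aligned them with HISAT2 2.1.0 to the pig genome, and counted uniquely mapped reads per Ensembl gene with HTSeq. They deposited raw counts per gene and cell, without normalization, and TPM derived from them, for 22840 entries, 16 of which they had added. Gene symbols were matched to 11426 identifiers, which hold 75.3% of the counts.

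The leading letters of each cell identifier were taken to mark its embryo, which no other label field states. Counts were summed per embryo and lineage, genes with TPM over 1 in at least 3 of 220 cells were kept, and edgeR 4.0.16 (R 4.3.3; TMM, glmQLFit, glmQLFTest, two-sided) was run, and genes with a Benjamini-Hochberg adjusted p under 0.05 were called. The SE is the fold change divided by the square root of F. Where a group had no count, folds are bounds against 3 counts over the group; where it had few, ratios of pooled counts carry exact conditional 95% intervals. Cell shares carry Clopper-Pearson intervals. Intervals cover counting error only, since reads without molecular identifiers are not independent molecules. Alternatives were DESeq2 1.42.0, limma 3.58.1 on mean log2(TPM + 1), other scalings and filters, library pools, cells per sum, all 7 lineages in 1 model, and each embryo left out. The tests were tried on simulated data. Python 3.11.15, SciPy 1.17.1 and matplotlib 3.10.9 were used.

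EPI and HYPO cells of 6 embryos share these letters and were taken as coming from the same animal. In residuals of 5804 genes their correlation was 0.00 to 0.24. LB and Sph embryos were not paired. The highest correlation between 2 of the hypoblast cells was 0.839, so no 2 of these cells were copies of 1 library.

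The genes named were FOXA2, APOA2, NODAL and GDF3; in each direction the 8 called genes with a symbol and the largest change without overlap; called list members; the 2 members of each of 21 lists with the highest mean CPM; up to 3 interaction genes per direction; and XIST. CALM2, DMXL1, CLU, RBP4, APOM, DNAJB1, HSPA8, FOXH1, SMAD2, FZD4, TCF7L2, MIXL1, GSC, DKK1, FGF17, NID1, LAMA1, GATA3, CCNE1, EZR, COX4I1, UQCRC2 and the members named only as not overlapping or at 0 were chosen after their values were seen where they fall outside this rule. For 1 list, 1 of the members with the highest mean CPM is not reported here. The members, lists and tests were chosen with earlier results of these data known. None of the 26 mitochondrial genes listed was matched.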

Additional observations from a re-analysis of the deposited data

Results flagged for a closer look

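In 67 named genes the values of the 5 LB HYPO embryos were examined for 1 embryo that stood apart on the log2(CPM + 1) scale, and 13 genes had one. Chance gives this in about 5% of such groups, but in 9 of the 13 the other 4 embryos were at 0, so that any count stands apart and this rate does not apply. In 10 of them a single embryo held all or most of the few counts of a gene near 0 in LB HYPO. These were AO for GDF3 (5.12 CPM), PLA2G7 (0.0697 CPM), GPC3 (0.0697 CPM), SLC44A4 (0.418 CPM) and ENSSSCG00000026492 (0.0348 CPM), AM for LHX1 (0.0364 CPM), EOMES (0.146 CPM), RBP4 (2.40 CPM) and GSC (0.473 CPM), and AL for PLOD2 (2.59 CPM). The other 3 were AP, at 0.275 CPM for MID1, at 1.10 CPM for APOM, below the other embryos, and at 420 CPM for DNMT1, above them.

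The change between LB and Sph differed between HYPO and EPI by the test of the difference itself in 6 genes. The fitted differences on the log2 scale were 4.63 for KRT18, 5.16 for CLU, 5.66 for DMXL1, 14.90 for SLC44A4, 14.67 for PLA2G7 and -4.34 for ENSSSCG00000016548. Those of SLC44A4 and PLA2G7 rest on groups at or close to 0 counts and are not sizes.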

How the results depend on the processing

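The 24 calls between the stages were made from 12 Sph HYPO cells, and 5 of the 8 sums held 3 cells or fewer. The part of the number of cells in the count of calls was not tested. UBB and KRT18 passed in all 18 alternatives, and KRT8, NPC2 and PLA2G7 in 17, whereas CANX passed in 2. The number of calls was 306 with DESeq2 (137 higher), 37 with the first 4 library pools (5 LB sums against C and F) and 39 with the last 4 (AM, AN and AO against E and F), and 17 to 110 with 1 embryo left out, 110 being without F. limma and the model of all 7 lineages made 24 and 22 calls but shared 4 genes each with the main result. The causes were not tested.

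The share of genes whose stage difference differed between HYPO and EPI was 0.0408% as reported and 3.44% with DESeq2. With DESeq2 the HYPO change minus the EPI change was positive in 224 of these genes and negative in 283. The share was 1.16% with limma, 0.0883% without TMM, 0.102% with RLE size factors and 0.0883% with the embryo as a block. It was 0.00679% to 1.12% with 1 embryo left out. No paired analysis was possible because the LB and Sph embryos are different animals, for the stage comparison itself.

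Of 72 genes followed, 1094 values kept their direction and side of the threshold, 143 lost it, 26 gained it and 28 changed sign, all in genes that were not called. With the last 4 pools the log2 fold change was -0.47 for HNF4A, -2.37 for GATA6, -0.30 for FST, 1.59 for ID2, -0.12 for FN1, -0.62 for LDHA, 0.39 for CCNB1, -0.23 for EED and 0.49 for OCLN. Without C it was -0.73 for HNF4A, -1.54 for GATA6, 0.20 for ID2, -0.60 for LDHA, 0.21 for CCNB1 and 0.36 for OCLN. GATA6 was at -0.28 without AL, -0.11 without AM, -0.20 without AO and -0.01 with all 7 lineages, and ID2 at 1.19 without AL. Sums of at least 2 cells, which leave out AL, gave the same -0.28 and 1.19. limma gave 0.88 for ID2 and -0.41 for LDHA. HNF4A was at -0.01 without AP, CDK1 at -0.01 without AP and -0.18 without F, and OCLN at 0.06 without E. With other embryos left out, these values reached 1.31 for HNF4A without AL, 0.52 for GATA6 without AP, -0.67 for ID2 without E, 1.44 for LDHA, -2.05 for CCNB1 and -1.21 for OCLN without F, and 0.59 for CDK1 without C. Of 360 list medians 5 moved by more than the median SE of their members, and 53 of 360 counts of called members changed.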
